A study of Mus musculus with 8 samples.

Results

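Gene expression in malignant peripheral nerve sheath tumours of mice given the MEK inhibitor PD-0325901 alone was set against tumours given vehicle. The comparison takes 4 of the 8 arrays of the series, titled as PD-0325901 arrays 1 and 2 and vehicle arrays 1 and 2, and all 19938 genes that a probe set annotated to a single symbol represents. The tumours are primary tumours of the NPcis model and had been treated for 14 hours. PD-0325901 was given at 1.5 mg/kg per dose with 2 doses a day, and the other 2 groups, used here only as separate arrays, had rapamycin at 5 mg/kg with PD-0325901 (the combination) or rapamycin alone. The series title places the work among signalling nodes and treatment biomarkers of NF1-mutant cancers. The labels do not say that the 2 arrays of a group come from separate animals, nor how the animals were bred or how old they were, so a p-value covers only the spread between these samples, which may be technical in part.

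NPcis mice carry mutant copies of Nf1 and Trp53 on the same chromosome, and tumours arise when the normal copies are lost. Nf1 encodes neurofibromin, which switches Ras off, so its loss leaves Ras free to drive Raf, the kinase MEK and, through MEK, the kinase ERK. ERK turns on immediate early transcription factors within minutes and its own inhibitors, the Sprouty and Spred proteins and the MAP kinase phosphatases, somewhat later. PD-0325901 blocks MEK and so lies between Ras and ERK. Tumours of this kind also hold macrophages, dendritic cells, lymphocytes, fibroblasts and vessels, whose RNA is measured together with that of the tumour cells.

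All values below are log2 levels as deposited, so that a difference of 1 is a 2-fold difference, and differences are PD-0325901 minus vehicle with limma's standard error (SE, n = 2 arrays each). No gene passed the threshold of 0.05 after Benjamini-Hochberg adjustment over all genes in the limma fit of 4 group means (0 of 19938, 0%), and the smallest adjusted p was 0.434. At an unadjusted p under 0.05 there were 1165 genes, 691 higher (3.47%) and 474 lower (2.38%) with PD-0325901, where 997 would be there with no difference. A description without a test was therefore used: both PD-0325901 arrays beyond both vehicle arrays and a difference of at least 1.5-fold. By it 572 genes (2.87%) were higher and 440 (2.21%) lower, and counts of list members below are read against these shares. The median difference over all genes was -0.02. The smallest exact permutation p for a single value with 2 arrays in each group is 0.333.

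Some arrays stood apart in ways that the treatment labels do not carry. Genes at least 4-fold above the median of the other 7 arrays numbered 67 and 66 in rapamycin arrays 1 and 2, with 8 and 7 on the chromosome that held most. Vehicle array 1 had 70 such genes, and 25 of these are on chromosome 9. Placed in the order of the GRCm38.p6 annotation, 24 of them fall in a run of 93 measured neighbours from Cwf19l2 to Olfr857, which starts with the third measured gene of the chromosome (1165 measured in all). Over the 34 genes of the run with a level above the median gene, vehicle array 1 was 1.82 above the PD-0325901 mean and vehicle array 2 was 0.31 above it, while the combination arrays were at 0.27 and -0.08 and the rapamycin arrays at 0.33 and 0.01. Of the 93 genes, 35 (37.6%) were lower with PD-0325901 by the rule of size and separation, and without the run the count of lower genes is 405. The run was picked after its values were seen. It holds Yap1, the effector of Hippo signalling, with 9.78 and 9.94 in PD-0325901 tumours against 12.74 and 10.63 in vehicle tumours, and Birc2, an inhibitor of apoptosis, with 8.09 and 8.28 against 10.33 and 8.36.

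**Figure D1:**
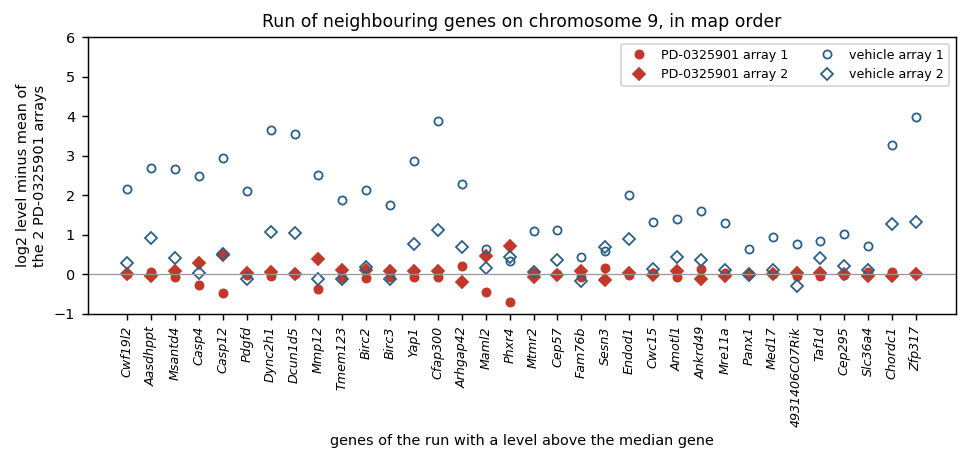
Log2 level minus the mean of the 2 PD-0325901 arrays (vertical axis) for the genes of the chromosome 9 run whose level is above that of the median gene, in map order (horizontal axis). Points are single arrays. Vehicle array 1 lies above the other 3 arrays for most of these genes, with Zfp317 and Cfap300 near 4.

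The sex-linked genes split the PD-0325901 pair. Xist, which silences one X chromosome in females, read 5.91 and 11.54 in PD-0325901 arrays 1 and 2, against 5.92 and 5.95 in the vehicle arrays. The Y-linked Eif2s3y, Kdm5d and Uty ran the other way, with Eif2s3y at 9.07 and 5.09 in PD-0325901 tumours against 8.23 and 8.35 in vehicle tumours. PD-0325901 array 1 is thus like both vehicle arrays and array 2 is not, so that the 2 arrays are not repeats of 1 animal's RNA and the difference of array 1 from the vehicle mean is the comparison among arrays alike in Xist. PD-0325901 array 2 also had the highest level of the erythroid genes Alas2, the haem synthesis enzyme of red cell precursors (7.53 and 11.50 in PD-0325901 tumours, 8.12 and 8.50 in vehicle tumours), and Slc4a1, the red cell anion exchanger (7.80 and 10.28 against 7.67 and 7.83). For gene lists on which the 2 arrays are uneven, the differences of arrays 1 and 2 are given side by side. Over 323 genes, which hold most of those named here, 192 differences moved by over 1.5 times and 54 turned sign when 1 of the 4 arrays was left out. With the Xist level, high or low, as a covariate chosen after these values were seen, limma also called 0 genes (843 at an unadjusted p under 0.05).

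The 12 higher genes with the smallest limma p had differences of 0.78 to 1.50. Rassf4, a Ras association domain protein, had 10.47 and 10.70 in PD-0325901 tumours against 9.23 and 8.94 in vehicle tumours, a 2.84-fold difference (1.50, SE 0.17). P2rx4, an ATP-gated ion channel of macrophages and microglia, had 11.36 and 11.45 in PD-0325901 tumours against 10.18 and 10.22 in vehicle tumours (1.2, SE 0.16). In both genes the arrays of a group lay close together and the groups well apart. Cd300c2, an activating receptor of leukocytes, stood at 10.54 and 10.49 against 9.70 and 9.59 (0.86, SE 0.10). Fcgr2b, the inhibitory Fc receptor, stood at 11.33 and 11.41 against 10.39 and 10.60 (0.87, SE 0.13). Cd5l, a protein secreted by tissue macrophages, read 6.96 and 6.77 in PD-0325901 tumours against 6.09 and 6.08 in vehicle tumours (0.78, SE 0.11). Tnfsf18, the ligand of the T cell receptor GITR, had 7.32 and 7.37 against 6.18 and 6.05 (1.23, SE 0.12), also without overlap. The other 6 were Iqgap2, a scaffold of the cytoskeleton (1.21, SE 0.17), Gpr155 (1.38, SE 0.20), Arhgef3 (1.15, SE 0.15), Tmem106a (1.05, SE 0.15), Hpgds, a prostaglandin D synthase (0.94, SE 0.12), and Rnf130, a ubiquitin ligase (0.80, SE 0.11). Each of the 12 has an adjusted p of 0.434.

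Among the 12 lower genes with the smallest p, Rgs1 had the largest difference. Rgs1, which damps chemokine receptor signalling in leukocytes, read 6.45 and 7.25 in PD-0325901 tumours against 10.14 and 9.48 in vehicle tumours, 7.77-fold lower (-2.96, SE 0.33). Il1b, the inflammatory cytokine interleukin 1 beta, read 7.91 and 7.87 in PD-0325901 tumours against 9.95 and 9.44 in vehicle tumours, 3.48-fold lower (-1.80, SE 0.20). Klra2, a lectin-like receptor of the Ly49 family, had 6.17 and 6.39 against 8.99 and 8.23 (-2.33, SE 0.28). These 3 genes, known from leukocytes, were lower while 13 of 15 macrophage markers were higher. Spred1, which carries neurofibromin to the membrane and so holds Ras back, had 9.96 and 9.97 in PD-0325901 tumours against 10.54 and 10.59 in vehicle tumours (-0.61, SE 0.09). Fosb, an AP-1 subunit, had 7.80 and 7.76 against 8.56 and 8.60 (-0.80, SE 0.13). For Spred1 and Fosb the 2 arrays of each group are nearly equal. Hspe1, the co-chaperonin of mitochondria, was at 10.65 and 10.52 against 11.26 and 11.30 (-0.69, SE 0.10). Stk17b, a kinase of lymphocytes, had a difference of -1.09 (SE 0.17), the extracellular matrix gene Frem1 of -1.22 (SE 0.20), Gpr31b of -0.93 (SE 0.14), Pxdc1 of -0.81 (SE 0.14), Polr1d, a subunit shared by RNA polymerases I and III, of -0.67 (SE 0.12) and Xk of -0.55 (SE 0.10), each with an adjusted p of 0.434.

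Several of the genes with the largest differences had 2 arrays of a group far apart. Stmn2, a microtubule regulator of neurons, had 9.56 and 11.90 in PD-0325901 tumours against 7.52 and 6.90 in vehicle tumours (3.52, SE 1.33). Both PD-0325901 arrays lie above both vehicle arrays, and without PD-0325901 array 2 the difference is 2.35. F13a1, the coagulation factor XIII chain of macrophages, had 12.09 and 12.33 against 9.08 and 10.18 (2.58, SE 0.65). Ccl8, a chemokine for monocytes and T cells, had 11.50 and 11.15 in PD-0325901 tumours against 8.69 and 9.08 in vehicle tumours (2.44, SE 0.41), with pairs that lie closer together. Vsig4, a complement receptor of resident macrophages, had 8.43 and 8.42 against 6.82 and 5.76 (2.13, SE 0.56). C4b, a complement component, had 11.46 and 11.16 against 8.83 and 9.61 (2.09, SE 0.56). Angptl7 (2.74), Cpa3, a mast cell protease (2.22), Mgst1, a glutathione transferase of membranes (2.19), Acpp (2.15), Chp2 (2.15), Cbr2, a carbonyl reductase (2.09), and Plac8 (2.09) make up the 12 higher ones, and without vehicle array 1 the difference of Angptl7 is 0.71. Without PD-0325901 array 2 that of Plac8 is 0.50.

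Of the 12 genes with the largest negative differences, Zfp317, Cep126, Cfap300, Dync2h1 and Dcun1d5 belong to the chromosome 9 run, and 10 of all 18 genes at least 4-fold lower without overlap do. Outside it, Krt18, a keratin of simple epithelia, read 8.74 and 7.75 in PD-0325901 tumours against 12.03 and 9.74 in vehicle tumours (-2.64, SE 0.91, and -1.50 without vehicle array 1). Igf2, a fetal growth factor that is imprinted, had 9.79 and 8.61 in PD-0325901 tumours against 11.55 and 11.90 in vehicle tumours (-2.52, SE 0.93). Glp1r, the receptor of an incretin hormone, stood at 8.29 and 8.96 against 10.95 and 11.78 (-2.74, SE 1.14). Zic1, a transcription factor of the neural plate, stood at 6.57 and 6.68 against 8.42 and 9.52 (-2.35, SE 0.72). Atp6v0d2, a proton pump subunit of osteoclasts and macrophages, read 6.72 and 7.83 in PD-0325901 tumours against 11.95 and 7.90 in vehicle tumours (-2.65, SE 1.32), so that without vehicle array 1 its difference is -0.63.

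Transcripts of the pathway's own kinases were close to vehicle levels. Of 16 measured genes for Ras, Raf, MEK and ERK kinases and scaffolds 8 were higher and 8 lower, the median difference was 0.02, and none met the rule of size and separation. The drug's targets Map2k1 (MEK1) and Map2k2 (MEK2) had differences of -0.18 (SE 0.21) and -0.03 (SE 0.15). Nf1 had 10.20 and 10.11 in PD-0325901 tumours against 10.26 and 10.49 in vehicle tumours (-0.22, SE 0.21), and this does not check the tumours' genotype. Ras adaptors and exchange factors had a median of 0.06 (17 measured) and Ras GTPase-activating proteins one of -0.05 (8 measured). In these lists the rule of size and separation was met by Rasgrp4, a Ras exchange factor of leukocytes (9.14 and 9.41 in PD-0325901 tumours against 8.28 and 8.54 in vehicle tumours), and by Rasa2, a Ras GTPase-activating protein (8.16 and 8.31 against 8.86 and 8.85), both named after their values were seen. Among the 23 measured receptor tyrosine kinases 18 were lower, with a median of -0.13. Mertk, a receptor for the uptake of dead cells and also named after its values were seen, was the 1 receptor that met the rule upward, with 10.60 and 11.28 in PD-0325901 tumours against 9.73 and 10.14 in vehicle tumours (1.01, SE 0.35). Erbb2, a partner of the neuregulin receptor in Schwann cells, had 8.21 and 8.39 in PD-0325901 tumours against 8.82 and 8.93 in vehicle tumours (-0.57, SE 0.10). Pdgfrb, the PDGF receptor of mesenchymal cells, had 10.71 and 11.36 against 11.70 and 11.49 (-0.56, SE 0.23).

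The feedback inhibitors of the pathway were lower in most cases, with Spred1 the member whose arrays agree most closely. Of the 8 measured Sprouty and Spred genes 6 were lower (median -0.30, and -0.47 without vehicle array 1), and 1 met the rule of size and separation. Spred2 had 10.12 and 10.12 in PD-0325901 tumours against 10.42 and 10.20 in vehicle tumours (-0.19, SE 0.11). Spry4, which blocks activation of Ras and Raf downstream of receptors, had 9.65 and 9.08 in PD-0325901 tumours against 9.74 and 10.01 in vehicle tumours (-0.51, SE 0.22, and -0.23 without PD-0325901 array 2). Spry2 overlapped between the groups, with 9.36 and 9.01 against 8.53 and 9.56 (0.14, SE 0.34), and its difference is -0.38 without vehicle array 1 and 0.65 without vehicle array 2.

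Among the 10 MAP kinase phosphatases, which remove phosphate from ERK and its relatives, 7 were lower (median -0.36, and -0.14 without vehicle array 1). Dusp5, a nuclear ERK phosphatase, stood at 9.18 and 9.16 in PD-0325901 tumours against 10.34 and 9.80 in vehicle tumours (-0.90, SE 0.30). Dusp6, the cytoplasmic ERK phosphatase widely used as a readout of ERK activity, stood at 10.71 and 9.76 against 11.18 and 10.84 (-0.77, SE 0.41). The PD-0325901 arrays of Dusp6 are uneven, and without array 2 its difference is -0.30. Dusp4 had 8.93 and 8.62 in PD-0325901 tumours against 10.27 and 8.45 in vehicle tumours (-0.59), and without vehicle array 1 its difference turns to 0.32.

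Immediate early genes were mostly lower, and some had differences below -1. Of 23 measured, 16 were lower and 12 of these without overlap, as 20.9% of all genes were, 6 met the rule of size and separation downward and 1 upward, and the median was -0.33 (-0.27 for PD-0325901 array 1 and -0.46 for array 2). Nr4a1, an orphan nuclear receptor induced by growth factors and by T cell receptor signals, read 8.48 and 8.11 in PD-0325901 tumours against 9.60 and 11.01 in vehicle tumours (-2.01, SE 0.43). Egr1, a zinc finger factor, read 9.43 and 8.53 in PD-0325901 tumours against 10.29 and 10.38 in vehicle tumours (-1.35, SE 0.47, and -0.90 without PD-0325901 array 2). Fos read 7.90 and 7.44 against 9.62 and 8.25 (-1.26, SE 0.43). In all 3 the groups are apart, but the vehicle arrays of Nr4a1 and of Fos are uneven, and the difference of Fos is -0.58 without vehicle array 1 and that of Nr4a1 -1.31 without vehicle array 2. Maff had a difference of -0.44 (SE 0.16). Myc had 11.45 and 10.85 against 11.72 and 11.50 (-0.46, SE 0.27, and -0.16 without PD-0325901 array 2). Atf3, a stress-induced factor named after its values were seen, was the member that met the rule upward, with 9.05 and 9.52 in PD-0325901 tumours against 8.90 and 8.23 in vehicle tumours (0.72, SE 0.29).

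The promoters of Fos, Fosb and Nr4a1 are shown because these 3 genes lie among the lower immediate early genes. Each sequence is the 200 bases before the RefSeq start in the direction of the gene (build GRCm38.p6), and capitals mark TGACG, the core of a cyclic AMP response element, on either strand. The windows are chr12:85473690-85473889 for Fos (plus strand), chr7:19310046-19310245 for Fosb (minus strand) and chr15:101266646-101266845 for Nr4a1 (plus strand).
Fos: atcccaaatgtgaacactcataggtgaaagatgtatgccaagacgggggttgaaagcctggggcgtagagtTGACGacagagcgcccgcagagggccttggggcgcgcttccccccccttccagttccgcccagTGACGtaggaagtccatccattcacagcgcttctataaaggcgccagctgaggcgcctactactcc
Fosb: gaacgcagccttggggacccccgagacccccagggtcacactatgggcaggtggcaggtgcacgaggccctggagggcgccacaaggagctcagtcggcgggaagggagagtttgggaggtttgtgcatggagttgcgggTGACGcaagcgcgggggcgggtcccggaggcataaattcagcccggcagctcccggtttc
Nr4a1: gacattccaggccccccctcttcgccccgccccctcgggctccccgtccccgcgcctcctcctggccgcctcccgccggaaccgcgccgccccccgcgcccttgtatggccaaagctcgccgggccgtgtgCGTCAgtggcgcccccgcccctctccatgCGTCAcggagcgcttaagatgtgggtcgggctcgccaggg
Fos and Nr4a1 hold 2 such matches each and Fosb holds 1, where 15.8% of 27025 windows of the same length, 1 per gene, hold at least 1. The AP-1 motif TGAGTCA, searched the same way, is in none of the 3 windows and in 3.63% of all windows. A match describes the letters and shows no bound factor.

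Of the 21 measured delayed ERK targets, genes that follow hours after ERK is switched on, 18 were lower and 7 met the rule of size and separation downward, none upward. Their median was -0.37, and it was -0.38 for PD-0325901 array 1 and -0.40 for array 2. Etv5, an Ets factor under ERK control, had 9.02 and 8.62 in PD-0325901 tumours against 9.23 and 9.58 in vehicle tumours (-0.59, SE 0.23, and -0.39 without PD-0325901 array 2). Plaur, the urokinase receptor, had 8.71 and 8.79 in PD-0325901 tumours against 10.22 and 9.14 in vehicle tumours (-0.93, SE 0.37, and -0.39 without vehicle array 1). Ets2 had a difference of -0.37 (SE 0.15), Uck2, a uridine kinase, of -0.80 (SE 0.39) and Epha2, an ephrin receptor, of -0.86 (SE 0.43). Classical readouts were closer to vehicle, with Fosl1 at -0.35 (SE 0.27), the cyclin gene Ccnd1 at -0.16 (SE 0.31) and Etv4 at -0.18 (SE 0.49), and the arrays of Ccnd1 and Etv4 overlap.

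Growth factors that act through the EGF and PDGF receptors include some of the larger negative differences. Hbegf, an EGF receptor ligand, stood at 9.69 and 9.09 in PD-0325901 tumours against 10.87 and 10.23 in vehicle tumours (-1.16, SE 0.30). Ereg, another such ligand, stood at 7.37 and 7.5 in PD-0325901 tumours against 8.49 and 8.70 in vehicle tumours (-1.16, SE 0.34). Pdgfa, a PDGF chain, stood at 9.89 and 10.22 against 11.62 and 10.91 (-1.21, SE 0.34). These 3 genes do not overlap between the groups, but their lists as wholes had medians of -0.06, over 10 EGF family ligands and over 21 ligands of the FGF, PDGF, VEGF, HGF and IGF families. Igf1, an insulin-like growth factor made by macrophages and fibroblasts and named after its values were seen, was higher, with 10.87 and 11.31 against 9.74 and 10.02 (1.21, SE 0.25).

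**Figure D2:**
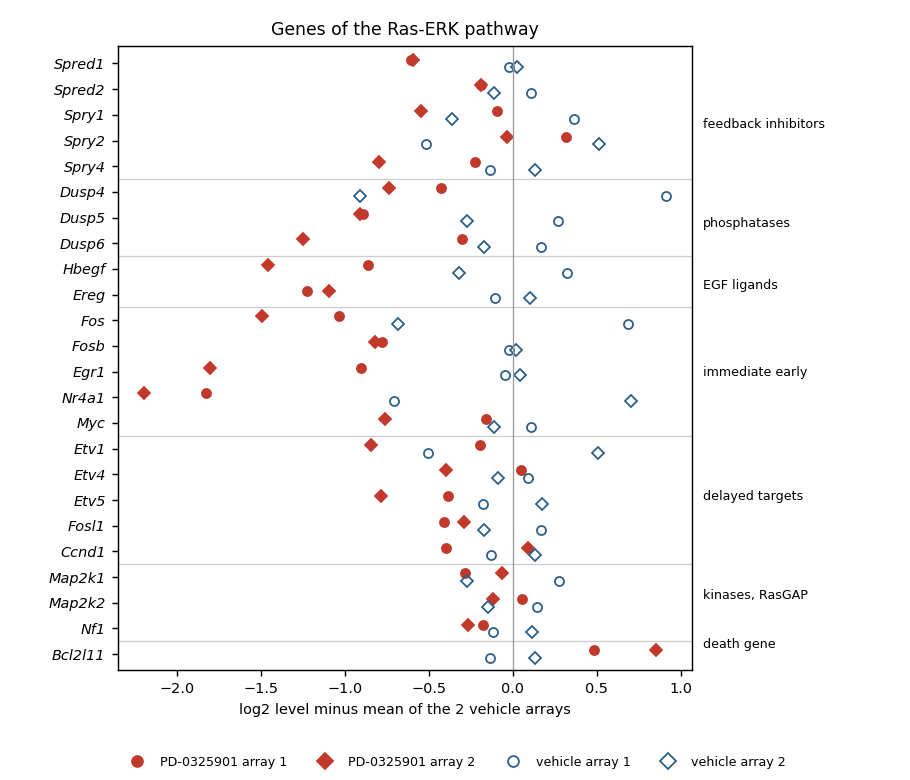
Log2 level minus the mean of the 2 vehicle arrays (horizontal axis) for genes of the Ras-ERK pathway (rows), grouped by role. Filled symbols are the PD-0325901 arrays and open symbols the vehicle arrays. Spred1, Fosb, Hbegf, Ereg, Egr1 and Nr4a1 show both PD-0325901 arrays left of both vehicle arrays, while Spry2, Etv4, Ccnd1, Map2k1 and Map2k2 overlap.

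MHC class II genes, which present peptides to CD4 T cells, were higher on both PD-0325901 arrays. All 12 measured members were higher, 9 without overlap, as 17.6% of all genes were, and 5 at 1.5-fold or more, with a median of 0.38 (0.41 for array 1 and 0.47 for array 2). Ciita, the coactivator that switches these genes on, had 9.06 and 9.15 in PD-0325901 tumours against 8.11 and 7.95 in vehicle tumours (1.07, SE 0.17). The alpha chain gene H2-Aa had 12.38 and 12.45 in PD-0325901 tumours against 11.68 and 11.58 in vehicle tumours (0.79, SE 0.12). The beta chain gene H2-Eb1 had 11.50 and 11.56 against 10.77 and 10.75 (0.77, SE 0.13). In each of these genes the 2 arrays of a group lie closer to each other than to any array of the other group. H2-Ab1, the other beta chain, had a difference of 0.79 (SE 0.18) and Cd74, the invariant chain that guides class II molecules to endosomes, one of 0.70 (SE 0.15). Adjusted p over all genes ran from 0.434 to 0.561 for these 5 in limma's fit. In bulk tumour RNA more cells that carry class II and more class II RNA per cell cannot be told apart.

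Class II promoters carry a conserved module whose Y box has the core CCAAT and whose X2 box resembles TGACG, and the windows of H2-Aa and H2-Eb1 are shown because these chains move together. They are the 200 bases before the RefSeq start (GRCm38.p6), chr17:34287824-34288023 on the minus strand and chr17:34305667-34305866 on the plus strand, with both motifs in capitals on either strand.
H2-Aa: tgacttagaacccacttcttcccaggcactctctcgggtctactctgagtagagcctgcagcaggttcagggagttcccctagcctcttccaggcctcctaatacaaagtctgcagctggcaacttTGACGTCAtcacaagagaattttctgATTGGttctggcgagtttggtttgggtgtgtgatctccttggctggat
H2-Eb1: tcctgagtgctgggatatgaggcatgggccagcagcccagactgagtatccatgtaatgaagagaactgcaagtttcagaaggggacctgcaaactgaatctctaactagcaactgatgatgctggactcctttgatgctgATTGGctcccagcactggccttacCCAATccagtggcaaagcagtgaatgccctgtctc
H2-Aa holds CCAAT once, read on the opposite strand, and TGACG on both strands, 2 matches that overlap in a palindrome. H2-Eb1 holds 2 CCAAT matches and no TGACG in this window. CCAAT is found in 30% of all 27025 windows and both motifs together in 5.14%.

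Macrophage markers were higher on both arrays, and so were the receptors that macrophages use to sense antibody, complement and nucleic acids. Of 15 macrophage markers 13 were higher and 8 met the rule of size and separation, with a median of 0.59 (0.49 for array 1 and 0.62 for array 2). Their mean level was 10.98 to 11.11 in PD-0325901 tumours and 10.41 to 10.66 in vehicle tumours. Trem2, a lipid-sensing receptor of macrophages, had 11.29 and 11.09 in PD-0325901 tumours against 10.45 and 10.25 in vehicle tumours (0.84, SE 0.14). Fcgr1, the high-affinity receptor for IgG, had 10.36 and 10.51 in PD-0325901 tumours against 9.76 and 9.28 in vehicle tumours (0.92, SE 0.17). Csf1r, the receptor that keeps macrophages alive, had 12.19 and 12.18 against 11.67 and 11.39 (0.65, SE 0.19). For Adgre1, the F4/80 antigen, the difference was 0.59 (SE 0.14) and for Mpeg1, a pore-forming protein, 0.61 (SE 0.14). All 5 are without overlap. The 2 lower markers, named after their values were seen, were Msr1 (-0.5) and Itgam (-0.23).

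The list of complement and Fc receptor genes had 12 of 13 members higher (median 0.42) and 5 at 1.5-fold without overlap. C3ar1, the receptor for the complement fragment C3a, had 12.36 and 12.51 in PD-0325901 tumours against 11.57 and 11.38 in vehicle tumours (0.96, SE 0.14). Endosomal Toll-like receptors and their partners had 9 of 11 members higher (median 0.40) and again 5 at 1.5-fold. Tlr7, a sensor of single-stranded RNA, had 10.12 and 10.54 in PD-0325901 tumours against 9.46 and 9.37 in vehicle tumours (0.92, SE 0.16). Tlr8 had a difference of 1.05 (SE 0.20), Tlr9 of 0.78 (SE 0.19) and Unc93b1, which carries these receptors to endosomes, of 0.78 (SE 0.15). Pld4, an endosomal nuclease, had a difference of 0.72 (SE 0.12), without overlap. These lists depend on the vehicle pair, since the Toll-like receptor median is 0.74 without vehicle array 1 and 0.09 without vehicle array 2, and the complement median 0.59 and 0.24.

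Dendritic cell markers had 13 of 15 members higher, 7 at 1.5-fold without overlap, and a median of 0.59, with 0.18 for PD-0325901 array 1 and 0.91 for array 2. Flt3, the growth factor receptor of dendritic cell precursors, had 8.02 and 8.44 in PD-0325901 tumours against 7.54 and 7.47 in vehicle tumours (0.72, SE 0.15). Irf8, a factor that directs their development, had 10.46 and 10.81 in PD-0325901 tumours against 10.02 and 9.73 in vehicle tumours (0.76, SE 0.16). Clec10a, a lectin of the conventional type 2 lineage, had 8.29 and 9.20 against 6.88 and 6.52 (2.05, SE 0.47). The 2 lower markers, named after their values were seen, were Itgax (-0.66) and Bst2 (-0.19). Ccr9 was below 6.96, the 25th percentile of all gene values, on all 4 arrays.

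Lymphoid, neutrophil and erythroid markers were higher mainly in PD-0325901 array 2. All 16 T and NK cell markers had positive differences (median 0.34), but the median was 0.06 for array 1 and 0.68 for array 2, and 3 members, Cd3d, Gzma and Klrb1c, were below that percentile throughout. Cd28, a costimulatory receptor of T cells, had 7.55 and 8.57 in PD-0325901 tumours against 7.01 and 6.83 in vehicle tumours (1.14, SE 0.36). Nkg7, a granule protein, had 8.88 and 10.29 in PD-0325901 tumours against 9.03 and 8.63 in vehicle tumours, so that array 1 lies among the vehicle arrays. The neutrophil median was 0.50, with 0.03 and 1.15 for arrays 1 and 2, and the median of the 4 measured erythroid genes was 0.88, with 0.10 and 1.61. Csf3r, the receptor of a neutrophil growth factor, was higher on both, with 9.87 and 10.13 against 8.84 and 8.95 (1.11, SE 0.27). In the neutrophil list 3 members met the rule of size and separation upward and 1 downward. The downward one was Trem1, named after its values were seen (-0.66). With the Xist level as a covariate the medians of these lists are -0.01 for T and NK cells, 0.07 for neutrophils and 0.35 for erythroid cells. The part of blood content in the other values was not tested. Markers of B and plasma cells (median -0.05), skeletal muscle (-0.04), adipocytes (0.13) and epidermis (-0.12) had medians nearer to 0. The skeletal muscle median hides an uneven vehicle pair. Dropping vehicle array 1 moves it to 0.55, and dropping array 2 instead moves it to -0.38. Among B and plasma cell markers 1 gene met the rule in each direction. Cd79b, singled out after its values were seen, was higher (0.77) and Sdc1 lower (-0.93). The median of neuron markers was 0.26, with 0.48 for PD-0325901 array 1 and 0.04 for array 2. Of the 12 neuron markers 9 were higher, and 3 met the rule of size and separation upward and none downward.

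Cytokine and chemokine genes did not move one way. Of 30 measured, 7 met the rule of size and separation upward and 3 downward. The median was -0.17, with -0.15 for PD-0325901 array 1 and 0.10 for array 2, and it turned to 0.06 without vehicle array 1. Beside Il1b, the neutrophil chemokine Cxcl2 had 6.43 and 6.72 in PD-0325901 tumours against 7.85 and 6.84 in vehicle tumours (-0.77, SE 0.35, and -0.27 without vehicle array 1), and Cxcl1 had a difference of -0.55 (SE 0.24). Cxcl9, a T cell chemokine induced by interferon gamma, had 8.41 and 8.86 in PD-0325901 tumours against 10.72 and 9.35 in vehicle tumours (-1.40, SE 0.54, and -0.72 without vehicle array 1). The monocyte chemokine Ccl2, named with Ccl6 after their values were seen, had 11.90 and 11.34 against 10.61 and 10.73 (0.95, SE 0.38), and Ccl6 had 10.58 and 11.51 against 9.87 and 9.07 (1.58, SE 0.50). Interleukin 1 beta and Cxcl2 are thus at the low end and the monocyte chemokines Ccl8, Ccl6 and Ccl2 at the high end of the same list.

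Prostaglandin enzymes and receptors went both ways. Ptger4, a receptor for prostaglandin E2, had 10.33 and 9.87 in PD-0325901 tumours against 9.11 and 9.06 in vehicle tumours (1.01, SE 0.16, adjusted p = 0.434 in limma). Tbxas1, thromboxane synthase, had 10.21 and 10.17 in PD-0325901 tumours against 9.37 and 8.90 in vehicle tumours (1.05, SE 0.24). Ptgs2, the inducible cyclooxygenase that starts the pathway and the 1 member that met the rule downward, had 9.44 and 8.52 against 10.50 and 11.33 (-1.94, SE 0.86), and was named after its values were seen. Of 18 members measured, 6 met the rule upward. The median was 0.20, with 0.05 for PD-0325901 array 1 and 0.31 for array 2, and 0.02 with the Xist level as a covariate.

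Interferon response genes and MHC class I genes were not alike on the arrays. The interferon list had 19 of 24 members higher (median 0.20), with -0.09 for PD-0325901 array 1 and 0.50 for array 2, and the class I list 12 of 14 (median 0.21), with 0.07 and 0.31. Mx1, an antiviral GTPase, had 7.95 and 8.54 in PD-0325901 tumours against 7.72 and 7.03 in vehicle tumours (0.87, SE 0.34). H2-M3, a nonclassical class I gene, had 9.23 and 9.43 against 9.10 and 8.55 (0.51, SE 0.20).

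**Figure D3:**
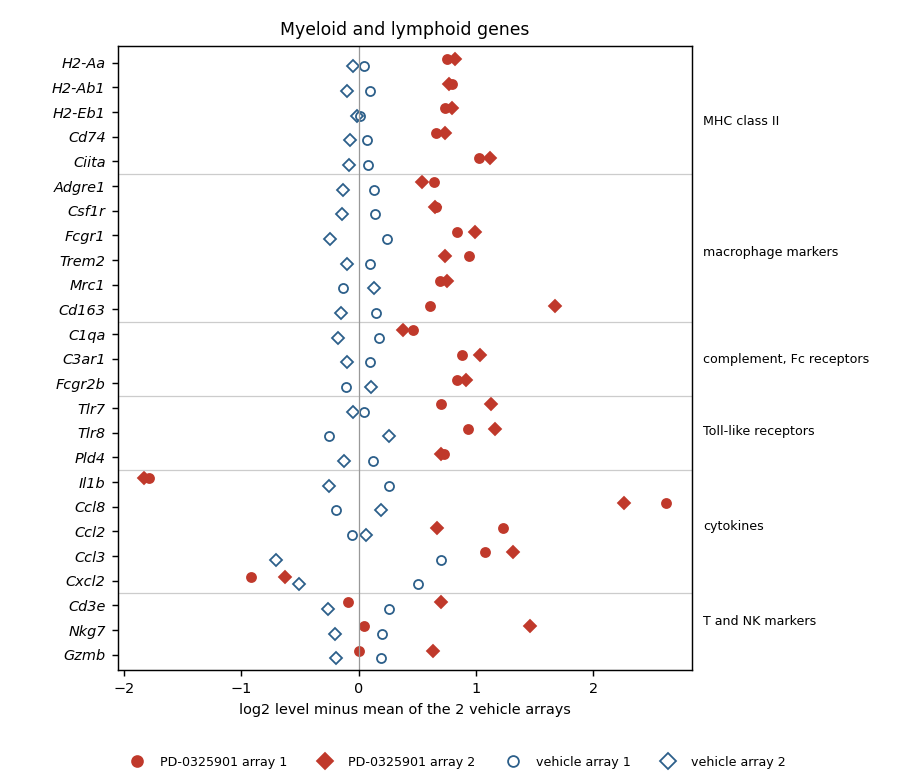
Log2 level minus the mean of the 2 vehicle arrays (horizontal axis) for myeloid and lymphoid genes (rows), grouped by role. Filled symbols are the PD-0325901 arrays and open symbols the vehicle arrays. Class II, macrophage, Fc receptor and Toll-like receptor genes show both PD-0325901 arrays right of both vehicle arrays, Il1b shows both far left, and Cd3e, Nkg7 and Gzmb are high on PD-0325901 array 2 alone.

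Markers of stromal and tumour lineages gave smaller or uneven differences. The Schwann lineage list, which stands for the labelled tumour type, had a median of -0.02 over 13 members. Of these, 3 met the rule of size and separation upward and none downward, and none of the 13 was below the 25th percentile of gene values on all 4 arrays. Its level was 8.39 to 8.50 in PD-0325901 tumours and 8.14 to 8.30 in vehicle tumours. Sox10, a master regulator of Schwann cells, had 8.05 and 8.00 against 8.17 and 7.87, and the neural crest and mesenchymal list had a median of -0.05. Chosen after their values were seen, Pmp22, a myelin protein, had 12.59 and 12.49 in PD-0325901 tumours against 11.03 and 11.77 in vehicle tumours (1.14, SE 0.44), and Cnp, an enzyme of myelinating cells, had 9.68 and 9.50 against 8.98 and 8.89 (0.65, SE 0.12). Cdh19, chosen in the same way, had the largest difference of the Schwann lineage list (1.31). Fibroblast markers had 12 of 14 members higher (median 0.61), but the median is 0.10 without vehicle array 1. Dcn, decorin, shows this with 12.94 and 12.96 in PD-0325901 tumours against 11.36 and 12.94 in vehicle tumours. Among 10 mast cell markers (median 0.31) the rule of size and separation picked 3 upward and 1 downward. Gata2, singled out after its values were seen, was that downward marker (-0.6, or -0.74 and -0.47 by PD-0325901 array). The proteases Mcpt4 and Cpa3 had 7.59 and 7.59 against 6.54 and 6.56, and 8.81 and 8.70 against 6.43 and 6.65, while the mast cell receptor genes Fcer1a and Ms4a2 were below the 25th percentile throughout. Endothelial markers had a median of -0.11 and pericyte and smooth muscle markers one of -0.10, each with PD-0325901 arrays on opposite sides of the vehicle mean (-0.27 and 0.16 for endothelium). Of the 17 endothelial markers 7 were higher and 10 lower, and 1 met the rule of size and separation in each direction. These were Eng, named after its values were seen (0.6), and Flt4 (-0.71). Emcn, endomucin of veins and capillaries, had 9.69 and 10.18 against 10.78 and 10.20 (-0.55, SE 0.26).

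Proliferation genes were lower almost without exception but by little, and more so on PD-0325901 array 2. In the DNA replication list 31 of 32 members were lower (median -0.38, with -0.10 for array 1 and -0.56 for array 2). Of these, 18 were lower without overlap, as 20.9% of all genes were, and 3 at 1.5-fold. In the mitosis list 32 of 33 were lower (median -0.30, with -0.16 and -0.45), and all 15 cyclins and kinases of the G1/S step (median -0.22). Mcm6, a subunit of the replicative helicase, had 10.04 and 9.94 in PD-0325901 tumours against 10.25 and 10.68 in vehicle tumours (-0.48, SE 0.21). Kif11, the motor that separates spindle poles, had 9.74 and 9.57 in PD-0325901 tumours against 10.12 and 10.45 in vehicle tumours (-0.63, SE 0.21). E2f8, an E2F factor of the S phase, had 8.71 and 8.47 against 9.58 and 9.31 (-0.86, SE 0.45). Members of such lists are transcribed together in cycling cells, so their shared sign is not a count of independent results. Ribosome biogenesis genes had the same form, all 31 lower with a median of -0.30 (-0.13 for array 1, -0.46 for array 2). Nop58, which guides ribosomal RNA methylation, had 9.91 and 9.51 against 10.30 and 10.63 (-0.76, SE 0.29), and Rrs1, a factor for the large subunit, had 7.81 and 7.38 against 8.11 and 8.45 (-0.69, SE 0.22). The inhibitors of cyclin-dependent kinases, listed together with pocket proteins such as Rb1, had a median of -0.01 over 9 members. The 1 member that met the rule of size and separation was Cdkn1c, upward and named after its values were seen (0.62).

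Metabolic lists divided. Hypoxia targets outside glycolysis were lower in 16 of 21 cases (median -0.29, 4 at 1.5-fold), and the median is -0.10 without vehicle array 1. Car9, a carbonic anhydrase at the cell surface, had 7.16 and 7.21 in PD-0325901 tumours against 9.35 and 8.46 in vehicle tumours (-1.72, SE 0.34). Glycolysis genes had a median of -0.05, with the glucose transporter Slc2a1 at 11.47 and 11.84 in PD-0325901 tumours against 12.49 and 11.81 in vehicle tumours, an overlap. Sterol synthesis and uptake genes were lower in 17 of 20 cases (median -0.31, 6 at 1.5-fold), with -0.14 for PD-0325901 array 1 and -0.58 for array 2. Idi1, an isomerase of the pathway, had 7.87 and 7.23 in PD-0325901 tumours against 8.65 and 8.68 in vehicle tumours (-1.11, SE 0.41), and Cyp51, a demethylase, had 8.38 and 7.49 against 9.08 and 8.86 (-1.03, SE 0.33, and -0.59 without PD-0325901 array 2). Fatty acid synthesis (median -0.02), oxidative phosphorylation (0.01) and ATF4 targets (-0.06) were near 0.

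Heat shock chaperones were lower in 17 of 19 cases with a median of -0.25, which is -0.02 without vehicle array 1 and -0.53 without vehicle array 2. Hspd1, the partner of Hspe1 in the mitochondrial chaperonin, had 11.39 and 11.11 in PD-0325901 tumours against 11.99 and 11.87 in vehicle tumours (-0.68, SE 0.16), apart on all arrays. Hspb8, a small heat shock protein, had 10.20 and 9.96 in PD-0325901 tumours against 10.61 and 10.52 in vehicle tumours (-0.48, SE 0.13). Chordc1, a partner of Hsp90 that lies in the chromosome 9 run, had 9.50 and 9.38 against 12.72 and 10.71. ER chaperones had a median of -0.11.

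Lysosomal and autophagy genes were higher in 23 of 28 cases by small amounts (median 0.23, and 0.11 without vehicle array 2, none at 1.5-fold). Ctsd, the protease cathepsin D, had 12.76 and 12.81 in PD-0325901 tumours against 12.36 and 12.43 in vehicle tumours (0.39, SE 0.09). Npc1, which exports cholesterol from lysosomes, had 11.30 and 11.44 in PD-0325901 tumours against 10.84 and 10.78 in vehicle tumours (0.56, SE 0.13).

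Matrix genes were lower in the main, but matrix proteases and inhibitors went both ways. Among TGF-beta targets and matricellular genes 15 of 17 were lower, with a median of -0.53 (-0.26 for PD-0325901 array 1 and -0.51 for array 2) and 4 members at 1.5-fold without overlap. Tnc, tenascin C, had 11.77 and 11.39 in PD-0325901 tumours against 12.78 and 12.80 in vehicle tumours (-1.21, SE 0.49). Smad7, the feedback inhibitor of TGF-beta receptors, had 8.36 and 8.56 in PD-0325901 tumours against 9.30 and 8.86 in vehicle tumours (-0.61, SE 0.25). Of 19 collagen chains 16 were lower (median -0.29, and -0.17 without vehicle array 2), among them Col12a1, with 10.22 and 9.11 against 10.80 and 10.91 (-1.19, SE 0.39, and -0.63 without PD-0325901 array 2). Of the 21 matrix proteases and inhibitors 9 were higher and 12 lower (median -0.07), and 6 met the rule downward and 1 upward. Outside the chromosome 9 run the median was -0.04, with 4 downward and 1 upward. Mmp10 (-1.74, SE 0.54) and Mmp13 (-1.76, SE 0.82, and -0.51 without vehicle array 1) are 2 of the 5 proteases of this list within the chromosome 9 run. Mmp14, a membrane-bound protease outside the run, had 11.62 and 11.35 against 11.94 and 11.71 (-0.34, SE 0.15).

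Few genes of cell death and arrest met the rule of size and separation. Bcl2l11, which encodes the death activator Bim that ERK marks for destruction, had 10.05 and 10.42 in PD-0325901 tumours against 9.43 and 9.70 in vehicle tumours, 1.59-fold higher (0.67, SE 0.25). Bmf, a related activator, had 9.43 and 9.74 in PD-0325901 tumours against 9.01 and 9.16 in vehicle tumours (0.50, SE 0.18). Bid, another member of the family and named after its values were seen, was lower (-0.64, with -0.56 for PD-0325901 array 1 and -0.72 for array 2). In this family 1 member met the rule upward and 1 downward. The Bcl2 family as a list had a median of 0.04 over 15 members, p53 targets one of 0.04 and FOXO and insulin feedback targets one of -0.03. In the last list 2 members met the rule upward and 1 downward. The nutrient sensor Sesn1, named after its values were seen, had 10.57 and 10.54 in PD-0325901 tumours against 9.45 and 9.67 in vehicle tumours (0.99, SE 0.21). Its relative Sesn3, which lies in the chromosome 9 run, went the other way, with 10.66 and 10.37 against 11.11 and 11.21 (-0.65).

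**Figure D4:**
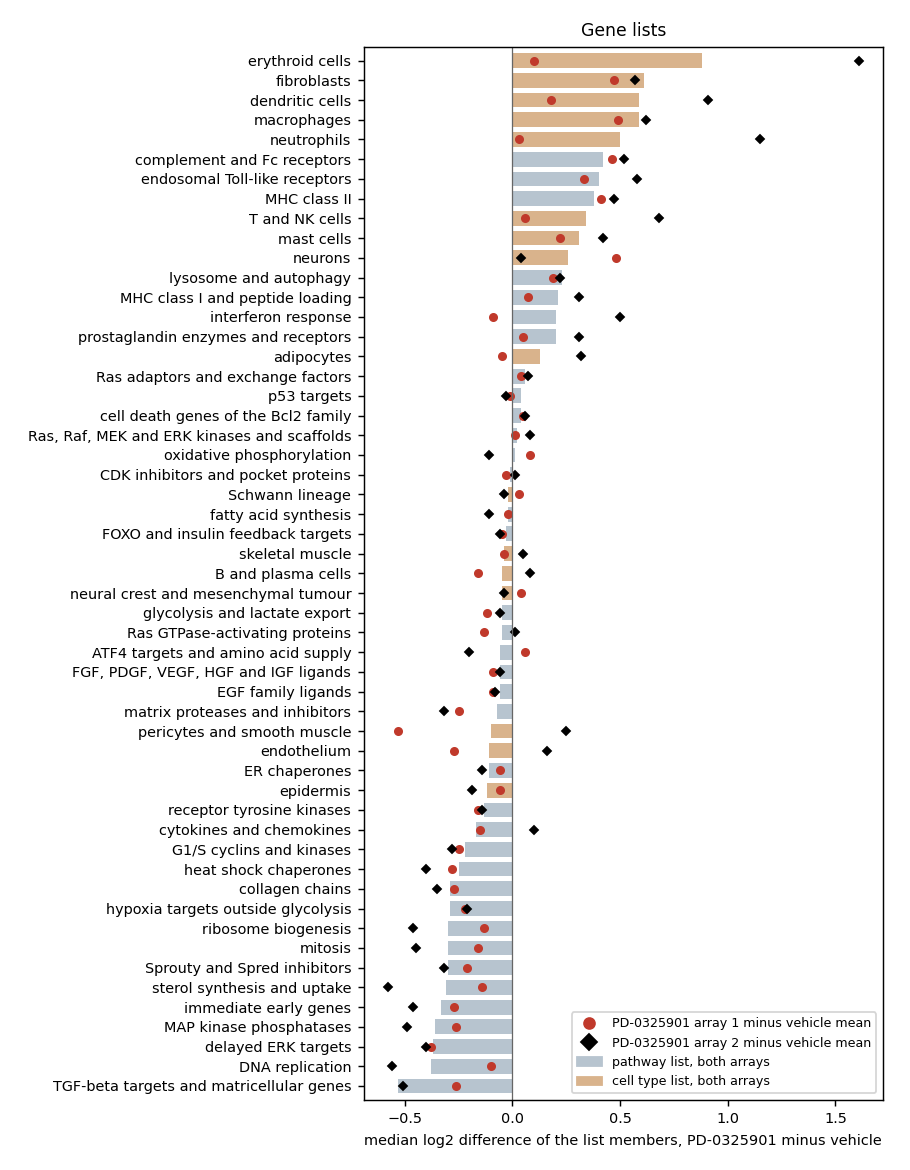
Median log2 difference of each gene list, PD-0325901 minus vehicle (bars, horizontal axis), with the same median for PD-0325901 array 1 and array 2 alone against the vehicle mean (points). Erythroid, fibroblast, dendritic cell and macrophage lists stand at the high end and TGF-beta, DNA replication and delayed ERK lists at the low end, and the 2 arrays are far apart for the erythroid and neutrophil lists. The sex-linked genes are not drawn.

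The 4 arrays with rapamycin, the combination against rapamycin alone, share no array with the comparison above and ask what the same inhibitor does on top of rapamycin. Genes chosen for a small p in PD-0325901 against vehicle had the same direction there in nearly all cases. Of the 12 higher ones all 12 were higher with the combination and 10 without overlap (median 0.55), and of the 12 lower ones 11 were lower, 11 of the 12 without overlap (median -0.44). Over all genes 48.3% were higher and 51.7% lower, and 16% (higher) and 15.1% (lower) were so without overlap. Selection by p favours genes with little spread on all 8 arrays, since limma pools the groups. H2-Aa had 12.19 and 11.91 in combination tumours against 11.03 and 11.03 in rapamycin tumours, and Cd300c2 had a difference of 1.05. Il1b had 7.16 and 7.53 against 8.29 and 8.27, and Spred1 had 10.15 and 10.14 against 10.56 and 10.69, differences of -0.94 and -0.48. The larger set agrees less: of the 572 higher genes 464 (81.1%) were higher and 272 (47.6%) without overlap (median 0.42), and of the 440 lower genes 354 (80.5%) were lower and 126 (28.6%) without overlap (median -0.36). Tnfsf18 (0.02), Cd5l (0.08) and Pxdc1 (0.05) showed next to no difference there, against 1.23, 0.78 and -0.81 without rapamycin.

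Some lists had other medians on the arrays with rapamycin than on those without it, and the fit tested that difference gene by gene. The T and NK list had a median of 1.0 in the combination against rapamycin, interferon genes 0.64, class II genes 0.54 and Toll-like receptor genes 0.67. The arrays within these groups were uneven. Xist read 7.09 and 11.47 in combination tumours and 11.58 and 10.70 in rapamycin tumours. The side without PD-0325901 is thus high in Xist on both arrays here, and low on both in PD-0325901 against vehicle. As the mean over members of the log2 level minus its mean over 8 arrays, T and NK markers were at 0.08 and 0.86 in combination tumours against -0.55 and -0.51 in rapamycin tumours, and interferon genes at -0.09 and 0.76 against -0.15 and -0.63. In both lists the higher combination array is the one high in Xist, and both rapamycin arrays are below both combination arrays. The part of Xist status in these values was not tested. Endothelial markers had a median of -0.75, and the DNA replication and mitosis lists -0.08 and -0.03, with DNA replication genes at -0.11 and -0.30 in combination tumours against -0.53 and 0.37 in rapamycin tumours on the same scale. Collagen chains had a median of 0.07 with rapamycin and -0.29 without it. The combination contrast called 0 genes (1327 at an unadjusted p under 0.05, smallest adjusted p 0.573), and the interaction called 0 (434 at an unadjusted p under 0.05, smallest adjusted p 1.0), both by limma.

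Genes of body position and imprinted genes were examined after their values were seen, since vehicle array 1 stood apart. Of the 10 measured Hoxa genes, which give cells their position along the body, 9 were lower in PD-0325901 tumours without overlap (median -0.78), as 20.9% of all genes were. For some the separation is slight, as for Hoxa9 with 6.95 and 6.90 in PD-0325901 tumours against 6.98 and 8.96 in vehicle tumours. Of 9 measured genes each, Hoxb had 4 lower and 0 higher without overlap, Hoxc 1 lower and 2 higher, and Hoxd 3 lower and 3 higher. The mean Hoxa level was 7.15 and 7.09 in PD-0325901 tumours against 7.56 and 8.40 in vehicle tumours, and 8.72 and 7.45 in combination tumours against 8.23 and 8.15 in rapamycin tumours. Hoxa5 read 6.72 and 6.64 in PD-0325901 tumours against 7.94 and 9.05 in vehicle tumours, and 10.20 and 6.93 in combination tumours against 9.17 and 8.66 in rapamycin tumours. The 2 combination arrays thus lie near opposite ends of the range over all arrays. Hoxc8 read 10.94 and 10.94 in PD-0325901 tumours against 8.38 and 10.60 in vehicle tumours. The imprinted genes Dlk1, a Notch-like ligand, and Meg3, a long noncoding RNA, were low in vehicle array 1, with Dlk1 at 12.32 and 12.48 in PD-0325901 tumours against 9.08 and 12.28 in vehicle tumours and Meg3 at 11.65 and 12.19 against 9.23 and 11.98. Hoxa5, Hoxc8, Dlk1 and Meg3 each vary between arrays of 1 group by more than the mean difference of PD-0325901 from vehicle, and with 2 tumours or samples a group, the site of origin, which the labels do not give, and treatment cannot be told apart.

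**Figure D5:**
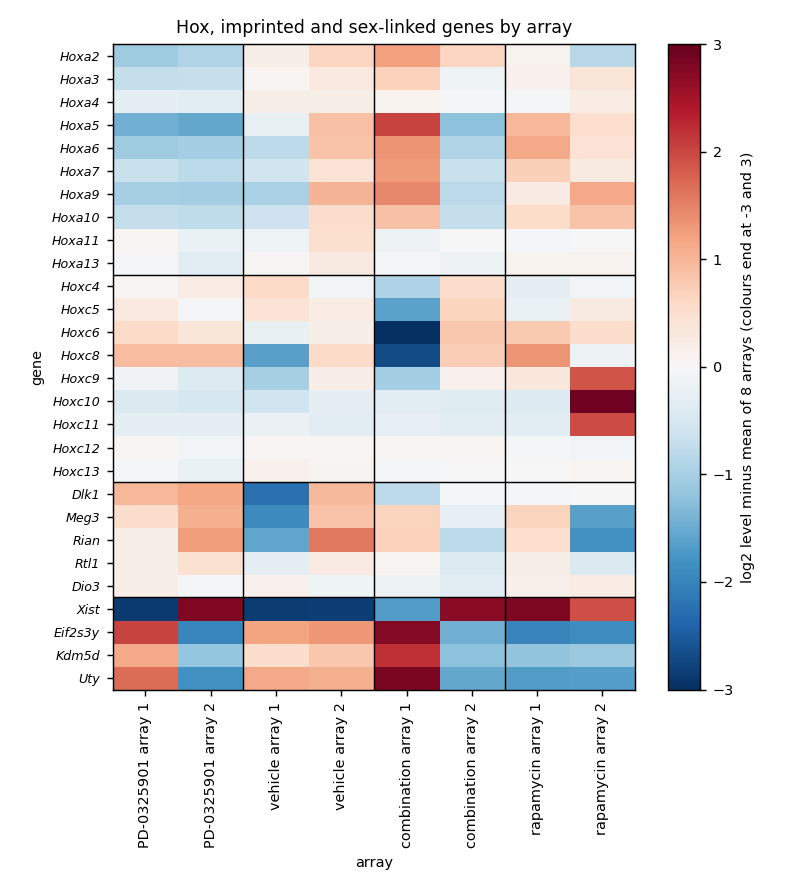
Log2 level minus the mean of the 8 arrays (colour) for Hoxa, Hoxc, imprinted and sex-linked genes (rows) on each array (columns), with the groups set apart by lines. Most Hoxa genes are low on both PD-0325901 arrays and on combination array 2, Dlk1 and Meg3 are low on vehicle array 1, and Xist and the Y-linked genes split the PD-0325901 and combination pairs.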

How the data were processed

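The values are log2 levels from the deposited series table, 1 per probe set and array. The scale was read from the values (3.36 to 14.36), and the software, background correction and normalization behind them are, in the sources used here, not given. RNA was extracted with Trizol and RNeasy columns and amplified with a Nugen Applause WT-Amp ST kit, per the labels' protocols.

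The table holds 35512 probe sets, 1 of them empty. The platform annotation gives 21789 a single symbol, 1621 several and 12101 none. A gene with more than 1 single-symbol probe set (999 genes) was represented by the brightest on average. No filter on low values was applied. Array medians were 7.79 to 7.90. The correlation across probe sets was 0.986 between the PD-0325901 arrays and 0.971 between the vehicle arrays, below that of vehicle array 2 with PD-0325901 array 1 (0.982) and of vehicle array 1 with rapamycin array 2 (0.98).

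Group means of the 4 groups were fitted with limma 3.58.1 in R 4.3.3 (lmFit, eBayes, two-sided, 4 residual and 1.98 prior degrees of freedom), with Benjamini-Hochberg adjustment over 19938 genes. The number of arrays limits the precision. On simulated data with 50 genes changed per size, the fit for PD-0325901 against vehicle recovered 28 genes at a log2 change of 1, 40 at 2, 47 at 3 and 46 at 4, with 14 false calls. The simulated spread was drawn gene by gene, without differences shared by many genes of an array. These counts may therefore not hold for the real arrays.

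The 54 gene lists (937 genes, 864 measured) come from textbook knowledge. Members and lists were chosen with earlier results of these data known, so lists are described by counts and medians beside those of all genes and not tested. Genes are named by these rules: the 12 with the smallest p and the 12 with the largest difference in each direction among genes without overlap, leaving out predicted genes, small RNAs and odorant or pheromone receptors (21 higher and 12 lower of these met the rule of size and separation), up to 5 members per list in the direction of its median, and a set list of pathway genes. Others are marked as chosen after their values were seen, and so were Sox10, the markers given for their low level, and the genes of the plots outside these rules. Alternatives were median centring, quantile normalization, only genes above the median level, a robust prior with a trend in the variance, averaging a gene's probe sets, only the groups compared, the array number as a block, leaving out each array, and an adjusted p threshold of 0.1. Added after seeing the data were the Xist level (high or low) as a covariate and leaving out the chromosome 9 run. Promoter sequences are RefSeq's (GRCm38.p6); 5 of the 6 genes looked up had an entry, and H2-Ab1 is named only.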

Additional observations from a re-analysis of the deposited data

Results flagged for a closer look

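For 8 of 307 genes picked by the naming rules (2.61%), both PD-0325901 arrays lay on one side of both vehicle arrays while both combination arrays lay on the other side of both rapamycin arrays. Over all genes 622 of 19938 (3.12%) did so, and 13 of the 864 listed genes (1.5%), so the share is not above that of all genes. The limma test of the difference between the 2 contrasts (interaction) called 0 genes, with an adjusted p of 1.0, so these differences failed the correction.

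The fibrillar collagen gene Col1a1 had 12.73 and 12.62 in PD-0325901 tumours against 12.93 and 13.02 in vehicle tumours, and 13.11 and 12.94 in combination tumours against 12.82 and 12.32 in rapamycin tumours (interaction 0.76). Its partner chain Col1a2 had 12.60 and 12.74 against 12.84 and 13.13, and 13.11 and 12.91 against 12.76 and 12.74 in the same order (interaction 0.57). Col5a1 had differences of -0.29 without rapamycin and 0.36 with it (interaction 0.65). Mmp14, the membrane-bound protease, had differences of -0.34 and 0.62 (interaction 0.96).

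Irs2, an adaptor of the insulin receptor, had 9.36 and 9.44 in PD-0325901 tumours against 9.68 and 9.97 in vehicle tumours, and 10.02 and 9.54 in combination tumours against 9.33 and 9.26 in rapamycin tumours (interaction 0.91). The Ras relative Rras had differences of 0.17 and -0.19 (interaction -0.36), the death activator Bad of 0.08 and -0.17 (interaction -0.26) and the neural crest factor Pax3 of -0.06 and 0.06 (interaction 0.12).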

How the results depend on the processing

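No gene passed the adjusted threshold in PD-0325901 against vehicle under any setting except the fit without vehicle array 2, which called 9 (0 to 9 when arrays are left out in turn). All of these but Ocstamp lie in the chromosome 9 run, among them Zfp317, Cep126 and Dcun1d5, each with an adjusted p of 0.016. The interaction called 0 to 2 genes, with 2 in the fit without vehicle array 2. With the array number as a replicate block 0 genes passed (1082 at an unadjusted p under 0.05). The labels do not say that the number pairs samples, and the deviations of same-numbered arrays correlate at -0.03 between PD-0325901 and vehicle. Genes higher by the rule of size and separation numbered 572 to 944 when arrays were left out in turn and 421 to 593 otherwise, and genes lower 440 to 936 and 308 to 437. Leaving out an array loosens that rule, since fewer arrays have to be apart. The median of MHC class I genes turned to -0.01 without vehicle array 2 (range -0.01 to 0.43). That of interferon response genes turned to -0.15 without vehicle array 2, and to -0.09 when PD-0325901 array 2 was left out (range -0.15 to 0.57). That of mast cell markers turned to -0.33 among genes above the median level, where fewer markers are left. The median of cytokines turned to 0.06 without vehicle array 1, and to 0.10 when PD-0325901 array 1 was left out, and those of several lists nearer to 0 turned as well. Dusp4 turned to 0.32 without vehicle array 1 (range -1.5 to 0.32). The causes were not tested. With 2 arrays a group, differences much smaller than the spread between arrays could not be seen, and genes below the 25th percentile of values have no known distance from background.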
